A study of Mus musculus with 2 samples.

Results

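Brequinar and estradiol withdrawal were compared directly at 12 h in 63.3 cells, a mouse acute myeloid leukemia (AML) line. The cells compared were those whose sample barcode assigned them to the culture held in brequinar for 12 h (1536 cells) or to the culture held without estradiol for 12 h (1229 cells), which made 2765 of the 12540 cells assigned to 1 of the 10 cultures. Cells called as doublets or as negative for a barcode were left out, and no 0 h culture entered the comparison. The study followed both treatments from 0 h through 6, 12, 24 and 48 h in single cells. All 10 cultures were labelled with barcoded oligonucleotides (MULTI-seq), pooled and sequenced as 1 pool of 10X Genomics 3′ libraries in 2 runs.

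Both cultures came from the same line and shared its growth medium, RPMI with 10% dialyzed fetal bovine serum and stem cell factor from conditioned medium. The brequinar culture stayed in 0.5 µM beta-estradiol and received 2 µM brequinar. The withdrawal culture was washed and put into medium lacking estrogen, with no drug. Each condition was 1 culture of 1 line, so the comparison has no replicate check: no p-value is given, and every interval below covers counting error only. The 2 barcodes that defined the groups are shown because the whole comparison rests on them, with capitals over their full length.
brequinar 12 h: TGAGACCT
withdrawal 12 h: CGAGATTC

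As background, brequinar inhibits dihydroorotate dehydrogenase (Dhodh), the mitochondrial enzyme of de novo pyrimidine synthesis, and so limits the nucleotides a cell needs to copy its DNA. Lines of this kind carry HOXA9 fused to the estrogen receptor's hormone-binding part: estradiol keeps the fusion active and holds the cells as immature myeloid progenitors, and its removal lets them mature. HOXA9 and its partner MEIS1 maintain transcription of progenitor genes in many acute myeloid leukemias. C/EBP factors and PU.1 (Spi1) drive the granule and phagocyte genes of maturing myeloid cells.

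The spliced counts summed to 15957273 unique molecular identifiers (UMIs) with brequinar and 10853718 after withdrawal, with medians of 11740.5 and 9535 UMIs per cell. Levels are given as CPM, a gene's counts scaled to the total of its culture, and a count of 3 UMIs corresponded to 0.188 and 0.276 CPM. Cells with at least 10% mitochondrial UMIs made up 18.8% of the brequinar cells (95% interval 16.8 to 20.8, exact binomial) and 22.7% of the withdrawal cells (20.4 to 25.2). Of 14 measured primary granule genes, the marker set of promyelocytes, 1 differed by 1.5-fold, and the list summed to 10837 CPM and 12099 CPM. Markers of other blood cells were mixed. Cd3e and Ly6g had no UMI in either culture, and Itgam, which encodes the integrin CD11b, had 0.313 and 0.829 CPM. The lymphoid gene Ebf1 (343 and 24.2 CPM), the eosinophil gene Prg2 (914 and 2159 CPM) and the neutrophil gene S100a8 (109 and 90.5 CPM) were present.

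Brequinar and withdrawal cells differed at 12 h in the genes of DNA replication, sterol synthesis, replication-dependent histones, myeloid regulators and eosinophil granules, and in a small set of progenitor genes. Of 6086 genes that reached 20 CPM in at least 1 of the cultures, 805 stood at least 1.5-fold higher with brequinar (13.2%) and 446 at least 1.5-fold lower (7.33%). The list counts below are to be read beside these 2 shares. At 2-fold the counts were 234 and 125, and at 4-fold 20 and 16. The 95% interval of the CPM ratio excluded 1 for all 1251 of these genes. This follows from the call rule, because at 20 CPM the counts are large enough that a 1.5-fold ratio leaves 1 outside a counting interval. It therefore adds no support to the calls. Over all 6086 genes the median log2 ratio of CPM + 5 was 0.09 (SD 0.46), and this small shift set the split between the directions: 64.4% of the genes past 1.5-fold were higher with plain totals, 54.1% with trimmed-mean factors and 48.7% with median-of-ratios factors. The separate 0 h cultures of the 2 series differed far less, with 0 genes higher and 3 lower of 5490, all 3 of them on the neutrophil list.

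**Figure D1:**
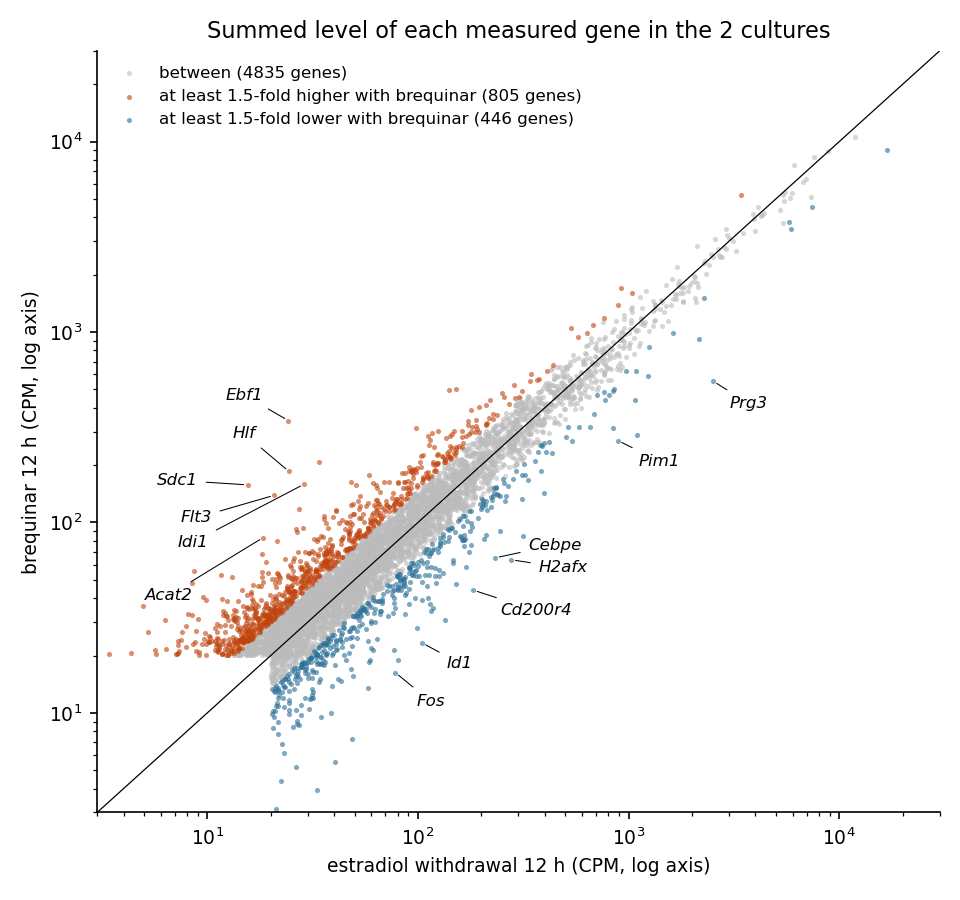
Summed level of each of the 6086 measured genes with brequinar at 12 h (y axis, CPM, log scale) against withdrawal at 12 h (x axis, CPM, log scale); each point is 1 gene and the line marks equal levels. Points above the line in red are the 805 genes at least 1.5-fold higher with brequinar and points below it in blue the 446 genes at least 1.5-fold lower, with Ebf1 farthest above and Prg3 the most abundant named gene below.

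The 2 directions differed in which culture had moved away from its own 0 h level. Against their own 0 h cultures, brequinar had 14.0% of these genes at least 1.5-fold higher and 4.14% lower at 12 h, and withdrawal had 13.4% higher and 10.2% lower. Of the 805 genes higher with brequinar, 267 were above their 0 h level with brequinar and within 1.5-fold of it after withdrawal, 234 were below their 0 h level after withdrawal and within 1.5-fold of it with brequinar, 29 did both, and 241 passed 1.5-fold in neither. Of the 446 lower genes, 230 were above their 0 h level after withdrawal alone, 53 were below it with brequinar alone, and 106 passed 1.5-fold in neither. The lower genes were therefore mostly ones that stood high after withdrawal.

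Among genes at 50 CPM or more, those farthest apart in favour of brequinar were mostly ones whose RNA was scarce without estradiol. Ebf1, an early B-lineage transcription factor (chr11:44617317-45008091, GRCm38), stood at 461 CPM and 426 CPM in the 2 cultures at 0 h, at 343 CPM with brequinar at 12 h and at 24.2 CPM after withdrawal, a 14.2-fold difference (12.5 to 16.1). Most of that gap was already there at 6 h, at 472 CPM against 36.9 CPM. In cells thinned to 2500 UMIs, Ebf1 had a UMI in 47.7% of brequinar cells (45.0 to 50.5) and 5.41% of withdrawal cells (4.09 to 6.99), so it was seen across the brequinar culture and not in a few cells. The pool holds no cell type known to lack Ebf1; the RNA of near-empty barcodes held it at 179 CPM, between the levels of the 2 cultures. Ebf1 is also a lymphoid marker: of 19 such markers 3 were measured, Ebf1 and Igll1 stood higher with brequinar, 5 had no UMI, and the list summed to 493 CPM against 150 CPM.

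Other genes that were low after withdrawal encode receptors, adhesion proteins and regulators. Sdc1, the syndecan proteoglycan CD138, stood at 158 CPM with brequinar and 15.6 CPM after withdrawal, 10.1-fold apart (8.66 to 11.9). Hlf, a transcription factor of hematopoietic stem cells, stood at 185 CPM against 24.4 CPM (7.59-fold, 6.69 to 8.63) and had been at 188 and 194 CPM at 0 h. Its level with brequinar therefore lay close to its 0 h level, whereas the withdrawal culture was low. Flt3, the receptor tyrosine kinase of early progenitors, stood at 90.8 and 89.0 CPM at 0 h, at 139 CPM with brequinar and at 20.8 CPM after withdrawal (6.67-fold, 5.82 to 7.69). Dab2, an endocytic adaptor, was 6.44-fold higher with brequinar (5.20 to 8.05), Ccr2, a chemokine receptor of monocytes, 4.29-fold (3.79 to 4.86), and Rgs1, a regulator of G protein signalling, 4.54-fold (3.76 to 5.52). Marcksl1 stood at 51.9 CPM against 13.1 CPM, Coprs at 68.6 CPM against 18.2 CPM, and Dlg2 at 208 CPM against 34.0 CPM.

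A smaller set was above its 0 h level with brequinar itself. Clec4d, a C-type lectin receptor of phagocytes, stood at 120 and 130 CPM at 0 h, at 497 CPM with brequinar and at 140 CPM after withdrawal, 3.54-fold apart (3.35 to 3.74). Prune2 stood at 20.9 and 20.4 CPM at 0 h and at 79.8 CPM with brequinar against 21.4 CPM after withdrawal. Cd69, an activation marker of leukocytes, lay on both sides of its 0 h level of 305 and 301 CPM, at 504 CPM with brequinar and 152 CPM after withdrawal (3.33-fold, 3.16 to 3.51). The sterol genes Idi1 and Acat2 completed the 15 highest genes and are described with their pathway.

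Of the 15 genes at 50 CPM or more farthest apart the other way, all but H2afx stood above their 0 h level after withdrawal. H2afx is described with the histones. Prg3, an eosinophil granule protein gene (chr2:84988215-84993886), stood at 737 and 580 CPM at 0 h, at 552 CPM with brequinar and at 2521 CPM after withdrawal, 4.57-fold lower with brequinar (4.46 to 4.68). Mreg, a melanosome transport gene, stood at 30.6 CPM against 134 CPM, 4.39-fold apart (3.96 to 4.88). Thbs1, which encodes the secreted matrix protein thrombospondin 1, stood at 84.9 CPM against 315 CPM (3.70-fold, 3.48 to 3.95). Pim1, a kinase gene induced by cytokine signals, was at 140 and 147 CPM at 0 h and at 269 CPM with brequinar against 891 CPM after withdrawal (3.32-fold, 3.20 to 3.44). Pim1 was thus above its 0 h level in both cultures, and more so after withdrawal.

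Receptor and early response genes made up much of the rest. Fos, an immediate early transcription factor, stood at 17.8 and 17.4 CPM at 0 h, at 16.3 CPM with brequinar and at 78.0 CPM after withdrawal (4.79-fold, 4.16 to 5.53). Id1, an inhibitor of helix-loop-helix factors, stood at 23.3 CPM against 105 CPM (4.48-fold, 3.98 to 5.05). The paired receptor genes Cd200r4 and Cd200r1 stood at 44.1 and 18.9 CPM with brequinar against 183 and 80.3 CPM. Csf2rb, the shared beta chain of the GM-CSF, IL-3 and IL-5 receptors, stood at 34.5 CPM against 115 CPM (3.35-fold, 3.03 to 3.71). Csf2rb has a near-identical neighbour and the Cd200r genes are close paralogs, so reads could be divided between copies. Ltb4r1, a leukotriene B4 receptor, was at 28.0 CPM against 98.7 CPM, the lectin gene Clec4a2 at 13.5 CPM against 57.9 CPM, Tec, a kinase gene, at 35.6 CPM against 118 CPM, and Fgd4 at 21.5 CPM against 77.0 CPM.

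**Figure D2:**
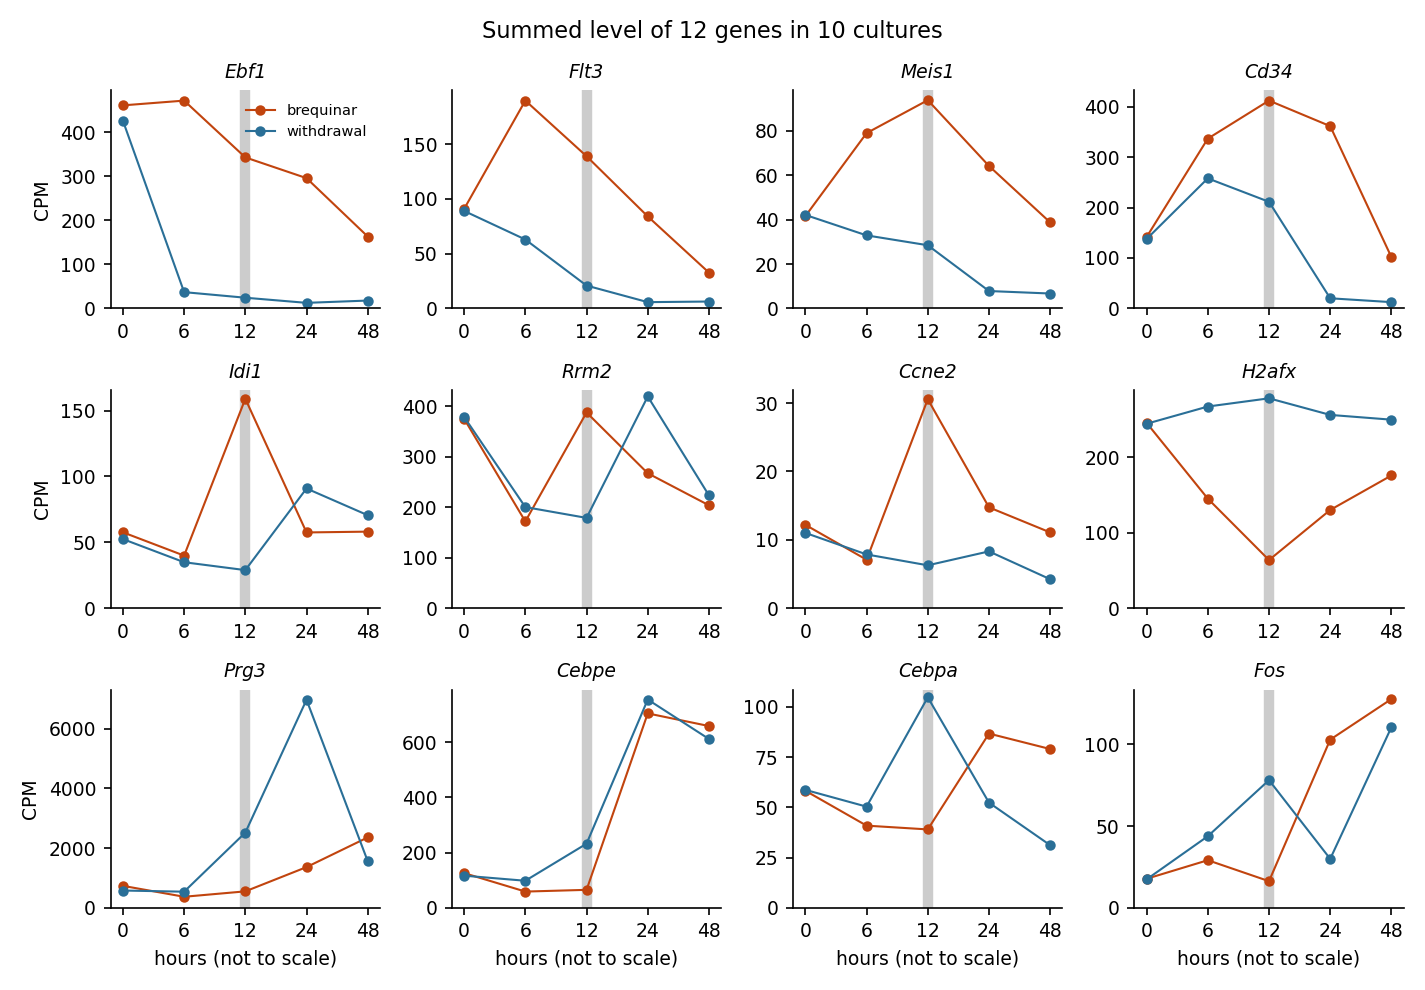
Summed level (y axis, CPM, linear from 0) of 12 genes in the 10 cultures against hours of treatment (x axis, categories not to scale), with brequinar in red, withdrawal in blue and 12 h shaded; each point is 1 culture. Ebf1 had separated by 6 h, whereas Idi1, Rrm2 and Ccne2 separated at 12 h, where Idi1 stood at 159 CPM against 28.8 CPM.

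Replication genes stood higher with brequinar nearly throughout. On a list of S phase genes, 31 of 40 measured members were at least 1.5-fold higher and 0 lower, against 13.2% higher among all genes, and the list median was 0.73 on the log2 (CPM + 5) scale against 0.09. Ccne2, cyclin E2, the partner of CDK2 at the start of S phase, stood at 12.2 and 11.01 CPM at 0 h, at 30.6 CPM with brequinar and at 6.27 CPM after withdrawal, 4.88-fold apart (3.78 to 6.39). Ccne1, cyclin E1, stood at 89.3 CPM against 26.5 CPM (3.37-fold, 2.96 to 3.83). Both cyclin E genes were above 0 h with brequinar and below it after withdrawal. Hells, a chromatin remodeller, stood at 285 CPM against 112 CPM, and Clspn, the checkpoint adaptor claspin, at 130 CPM against 51.9 CPM. Pcna, the sliding clamp of the polymerases, stood at 117 CPM with brequinar, close to its 111 and 110 CPM at 0 h, and at 69.3 CPM after withdrawal (1.69-fold, 1.56 to 1.85).

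The supply of deoxynucleotides and the replication fork checkpoint followed the same direction. On the list of deoxynucleotide (dNTP) supply genes 13 of 15 were higher and 0 lower (median 0.75). Rrm2, the regulated subunit of ribonucleotide reductase, stood at 375 and 379 CPM at 0 h, at 388 CPM with brequinar and at 179 CPM after withdrawal (2.17-fold, 2.06 to 2.28). Dck, the kinase that salvages deoxycytidine, was 2.68-fold higher with brequinar (2.41 to 2.99). On the fork checkpoint and repair list 23 of 37 were higher and 1, H2afx, lower (median 0.65); Brca2 stood at 94.0 CPM against 37.6 CPM and Pole, the leading strand polymerase, at 82.1 CPM against 33.6 CPM. Of 23 measured G1 cyclin, CDK and E2F regulators 8 were higher and 0 lower, among them Skp2 (2.69-fold, 2.29 to 3.18) and E2f1 (2.11-fold, 1.87 to 2.37). Cdkn1a, the CDK inhibitor p21, stood at 29.1 CPM and 30.4 CPM, with a ratio of 0.956 whose interval held 1 (0.829 to 1.11).

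E2F factors switch on replication genes at the end of G1, and 2 E2F-like words, TTTCGCGC and TTTGGCGC, were searched on both strands in the 250 bases before the start of each gene (RefSeq, GRCm38.p6). A match was found in 5 of 29 S phase list promoters (17.2%) and in 88 of the 4955 promoters of measured genes (1.78%). Of all genes higher with brequinar, 16 of 656 promoters held one (2.44%), and of the lower genes 3 of 347 (0.865%). The stretches around the matches are printed for some genes that stood higher with brequinar, and capitals mark the match. Mcm6, a subunit of the replicative helicase (chr1:128359725-128359835, minus strand), is on the S phase list. So is Pola1, the catalytic subunit of the primase polymerase (chrX:93632266-93632313, minus strand). Rbl1, the pocket protein p107 (chr2:157204535-157204572, minus strand), is on the list of G1 cyclin, CDK and E2F regulators.
Mcm6: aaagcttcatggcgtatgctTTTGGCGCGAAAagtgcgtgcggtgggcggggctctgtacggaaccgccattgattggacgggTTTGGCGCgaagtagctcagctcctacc
Pola1: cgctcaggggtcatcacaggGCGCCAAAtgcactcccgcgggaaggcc
Rbl1: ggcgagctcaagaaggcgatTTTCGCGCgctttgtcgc
The Pola1 match reads on the other strand. Mcm6 held 3 matches, of which 1 of each word overlap on opposite strands, and stood at 218 CPM with brequinar against 144 CPM after withdrawal (1.51-fold, 1.43 to 1.61). A match is a description of letters and no measure of binding.

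At the level of cells, the S phase list differed in its mean and the G2/M list in its spread. In cells thinned to 2500 UMIs (1324 with brequinar, 999 after withdrawal, shallower cells left out), the S phase list had a mean of 15.5 UMIs per cell with brequinar and 8.61 after withdrawal, with SDs between cells of 6.18 and 6.27. At least 20 UMIs of that list were found in 26.5% of brequinar cells (24.1 to 29.0) and 6.91% of withdrawal cells (5.41 to 8.66), and under 5 in 2.57% (1.79 to 3.57) and 32.4% (29.5 to 35.4). Cells with few replication transcripts were thus common after withdrawal and rare with brequinar. For the G2/M list the 2 cultures had like means, 21.7 and 21.4 UMIs, but the SD between cells was 7.74 with brequinar and 16.1 after withdrawal. At least 40 UMIs of the G2/M list were found in 1.44% of brequinar cells (0.866 to 2.23) and 17.4% of withdrawal cells (15.1 to 19.9), against 9.24% and 9.97% at 0 h. Under 10 UMIs of that list were found in 5.74% of brequinar cells (4.55 to 7.13) and 33.6% of withdrawal cells (30.7 to 36.7), against 6.49% and 7.16% at 0 h. With brequinar the high end of the range was thus thinner than at 0 h and the low end about as at 0 h.

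**Figure D3:**
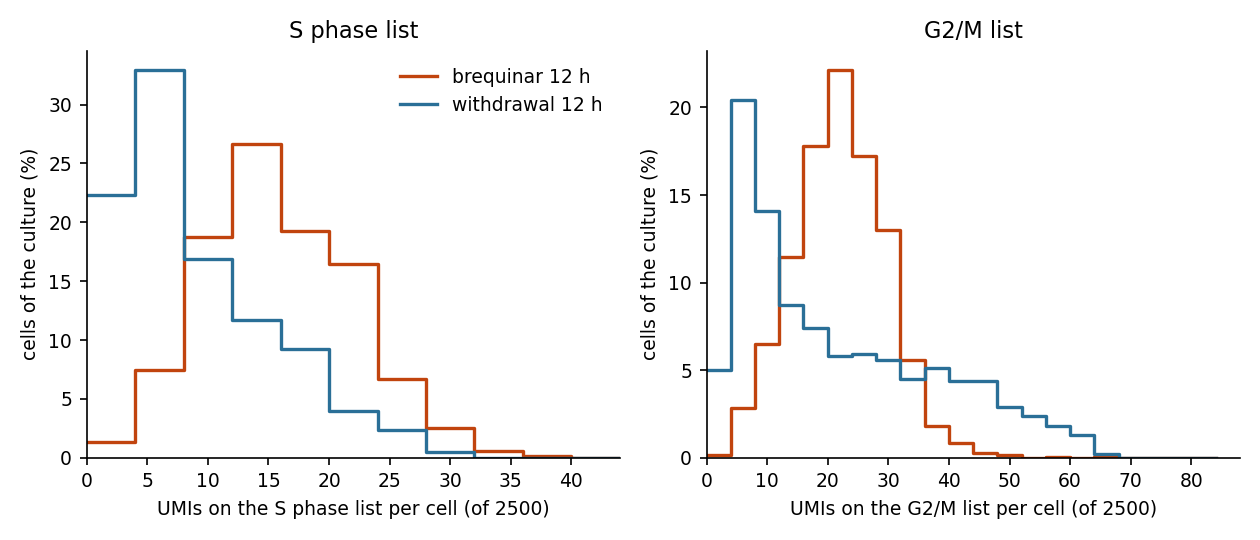
Share of cells (y axis, percent of the culture) by UMIs on the S phase list (left) and the G2/M list (right) per cell (x axis, of 2500 UMIs in bins of 4), for brequinar 12 h (red, 1324 cells) and withdrawal 12 h (blue, 999 cells). The brequinar curves are single peaks, with means of 15.5 and 21.7 UMIs, whereas the withdrawal curves peak low and, for G2/M, trail past 40 UMIs.

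Cells were also put into classes by their S phase and G2/M scores (scanpy), with G1-like meaning that neither score was above 0. With brequinar 55.3% of cells fell in the S class (52.6 to 58.0), 43.2% in the G2/M class (40.5 to 45.9) and 1.51% in the G1-like class (0.925 to 2.32). After withdrawal the shares were 30.7% (27.9 to 33.7), 48.3% (45.2 to 51.5) and 20.9% (18.4 to 23.6). At 0 h the G1-like class held 0.611% and 0.682% of cells, so at 12 h that class was near its 0 h share with brequinar and well above it after withdrawal. At 6 h it had held 11.5% of brequinar cells (9.65 to 13.5) and 8.90% of withdrawal cells (7.25 to 10.8). The S and G2/M shares at 0 h were 46.8% and 52.6% in the brequinar series and 48.1% and 51.2% in the withdrawal series. The brequinar culture thus had more S class and fewer G2/M class cells than at 0 h, and the withdrawal culture fewer S class cells. The G1-like class of brequinar was 20 cells, too few to compare gene by gene. Classes were cut from continuous scores and name a range of expression, not a measured DNA content.

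The classes were then compared one by one. The S phase and G2/M lists set the classes, so their values within a class are a description, with no independent weight. Inside the S class 6 of 40 S phase genes were at least 1.5-fold higher with brequinar and 0 lower (median 0.30). Mcm5, another helicase subunit, stood at 149 CPM and 155 CPM in the S class, a ratio of 0.957 (0.860 to 1.07). Inside the G2/M class 28 of 38 S phase genes were higher and 0 lower (median 0.72). With cells weighted to the same class shares in both cultures, 15 of the S phase list stood higher in place of 31. The sterol list had 21 of 24 higher inside the S class and 23 of 24 inside the G2/M class. Ebf1 was 17.98-fold higher in the S class (13.8 to 23.9) and 13.8-fold in the G2/M class (11.5 to 16.6), and Cebpe 4.30-fold lower (3.81 to 4.86) and 3.26-fold lower (2.94 to 3.63).

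Histone transcripts ran against the other replication genes. All 5 measured members of the replication-dependent histone list were lower with brequinar (median -1.24), against 7.33% lower among all genes. Hist1h1a stood at 25.5 and 23.4 CPM at 0 h, at 4.39 CPM with brequinar and at 22.5 CPM after withdrawal, 5.13-fold apart (3.91 to 6.78), and Hist1h1e, another linker histone, at 15.5 CPM against 49.3 CPM. Of 16 clustered histone genes at 5 CPM or more, a set gathered after the values were seen, 15 were at least 1.5-fold lower. The exception, Hist1h4i, stood at 121 CPM with brequinar against 90.5 CPM (1.34-fold higher, 1.24 to 1.45). All clustered histone genes summed to 591 and 574 CPM at 0 h, to 310 CPM with brequinar and to 594 CPM after withdrawal (1.92-fold, 1.85 to 1.99). These libraries capture polyadenylated RNA and most replication-dependent histone messages carry no poly(A) tail, so the counts come from the polyadenylated part, and near-identical copies may share reads.

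H2afx, which encodes the histone variant that is phosphorylated around broken or stalled DNA (chr9:44334694-44336077), was the lone fork checkpoint gene lower with brequinar. It stood at 245 and 244 CPM at 0 h, at 145 CPM with brequinar at 6 h, at 63.7 CPM at 12 h, and at 278 CPM after withdrawal at 12 h, 4.36-fold apart (4.06 to 4.69). Its level after withdrawal stayed between 244 and 278 CPM from 0 h to 48 h, so the difference lay in the brequinar culture. In the G2/M class H2afx stood at 68.9 CPM against 439 CPM, 6.37-fold apart (5.79 to 7.03), and in the S class 58.0 CPM against 149 CPM. The variants H2afz and H2afy were on the other side, at 225 CPM against 171 CPM and 212 CPM against 160 CPM.

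Most mitotic genes did not pass 1.5-fold. Of 53 measured G2/M genes 43 lay between the 2 cuts (median -0.03). With brequinar 3 were higher (5.66%, against 13.2% over all genes) and 7 lower (13.2%, against 7.33%). The lower ones were Cdc20, Ube2c, Ccnb2, Cenpa, Cenpf, Hmmr and Ccnb1. Cdc20, the activator of the anaphase-promoting complex, stood at 115 and 122 CPM at 0 h, at 52.8 CPM with brequinar and at 112 CPM after withdrawal (2.13-fold, 1.95 to 2.33), Ube2c, its ubiquitin-conjugating enzyme, at 319 CPM against 582 CPM, Ccnb2, cyclin B2, at 106 CPM against 193 CPM, and Cenpa, the centromeric histone, at 489 CPM against 842 CPM. For these 4 genes the brequinar level was the one below 0 h. Cbx5 (1.83-fold) and Aurkb (1.65-fold) stood higher, and Mki67 at 174 CPM against 162 CPM (ratio 1.08, 1.01 to 1.14). The cell cycle homology word TTTGAA, searched after the values were seen, occurred in 19 of 48 G2/M promoters (39.6%) and in 534 of 4955 overall (10.8%); it is printed in capitals for 2 of the lower genes, Cdc20 (chr4:118437344-118437381, minus strand) and Ube2c (chr2:164769880-164769925, plus strand, where it reads on the other strand).
Cdc20: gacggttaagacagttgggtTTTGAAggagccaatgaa
Ube2c: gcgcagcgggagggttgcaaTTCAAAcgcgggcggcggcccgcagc

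Sterol and fatty acid synthesis had the highest median of the 16 plotted lists. Of 23 measured members 22 were at least 1.5-fold higher with brequinar and 1 lower, with a median of 0.96 against 0.09 over all genes. Idi1, isopentenyl diphosphate isomerase (chr13:8885501-8892451), stood at 57.6 and 52.4 CPM at 0 h, at 159 CPM with brequinar and at 28.8 CPM after withdrawal, 5.51-fold apart (4.90 to 6.22). Msmo1, a demethylating step of cholesterol synthesis, stood at 162 CPM against 48.3 CPM (3.36-fold, 3.06 to 3.70), Fasn, fatty acid synthase, at 61.9 CPM against 19.1 CPM, and Scd2, a desaturase, at 315 CPM against 98.2 CPM. Acat2, cytosolic acetoacetyl-CoA thiolase, was 4.52-fold higher (3.90 to 5.28). All 5 of these genes were above 0 h with brequinar and below it after withdrawal.

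The exception was Hmgcs1, a cytosolic synthase early in the pathway. It stood at 77.3 and 73.7 CPM at 0 h, at 80.4 CPM with brequinar and at 166 CPM after withdrawal, 2.07-fold lower with brequinar (1.92 to 2.22). Its high value was that of the withdrawal culture, which at 6 h had 121 CPM. The regulators Srebf1, Srebf2 and Insig1 were all among the higher genes. At 24 h the list stood on the other side, with a median of -0.54.

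CCAAT boxes are bound by NF-Y, a partner of the sterol regulatory factors at such promoters. CCAAT, on either strand, occurred in 12 of the 15 promoters held for the list (80.0%) and in 1807 of 4955 over all measured genes (36.5%). The share was also high on the S phase list (21 of 29, 72.4%) and the G2/M list (37 of 48, 77.1%), so sterol genes were not alone in it. The word TCACNCCAC, a sterol element searched after the values were seen, occurred in 1 of the 15 promoters, that of the exception Hmgcs1, and in 45 of 4955 (0.908%). Stretches with the matches in capitals are shown for 2 higher genes, Idi1 (chr13:8885541-8885605, plus strand) and Msmo1 (chr8:64733609-64733758, minus strand), with CCAAT, and for Hmgcs1 with the sterol element (chr13:119690194-119690242, plus strand).
Idi1: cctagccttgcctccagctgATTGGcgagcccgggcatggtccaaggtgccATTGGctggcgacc
Msmo1: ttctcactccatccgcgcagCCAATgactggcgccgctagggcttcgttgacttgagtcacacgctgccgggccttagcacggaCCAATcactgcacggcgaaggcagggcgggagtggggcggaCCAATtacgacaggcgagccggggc
Hmgcs1: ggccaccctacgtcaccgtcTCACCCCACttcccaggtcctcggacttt

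**Figure D4:**
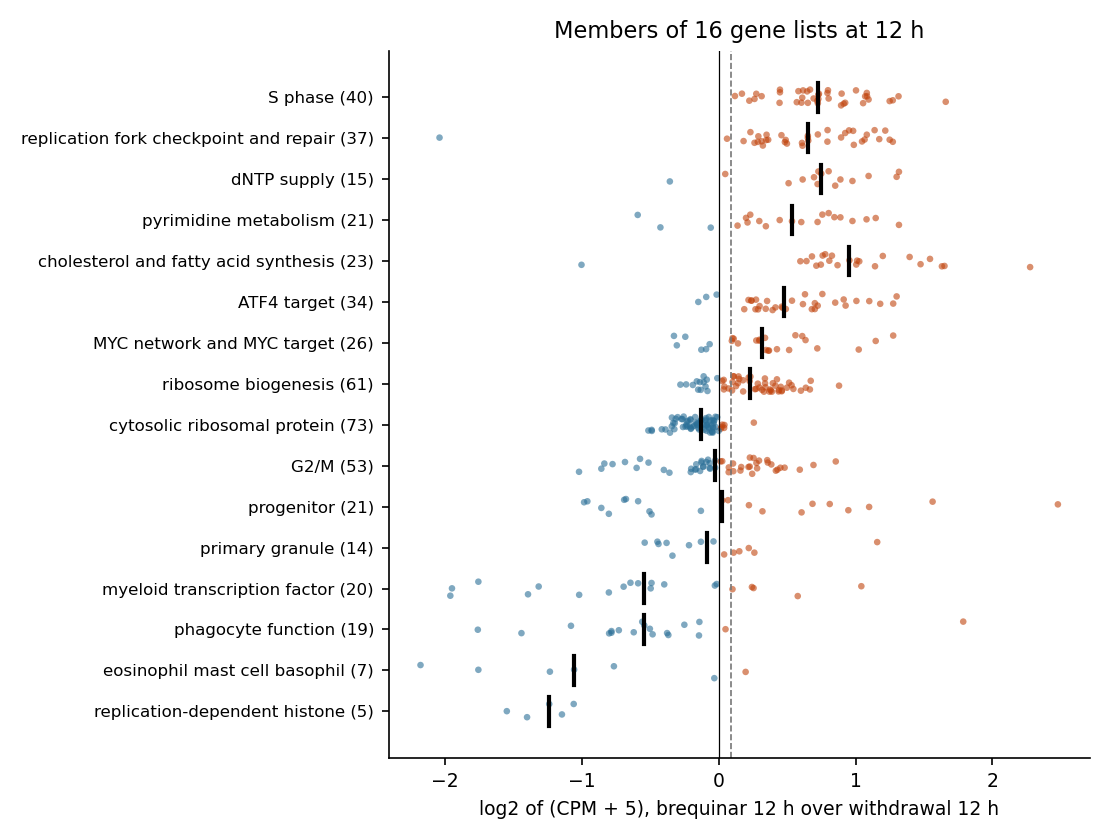
Log2 ratio of CPM + 5, brequinar 12 h over withdrawal 12 h (x axis), for each measured member (points) of 16 gene lists (y axis, number of members in brackets), with the list median as a black bar and the median of all genes as a dashed line at 0.09. The sterol list sits farthest right with 1 exception, and the histone and eosinophil lists farthest left.

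Pyrimidine genes were often higher with brequinar than after withdrawal. Of 21 measured members of the pyrimidine metabolism list 10 were higher and 1 lower (median 0.54). The list also holds salvage, transport and deoxynucleotide genes, so this count is not one of the blocked de novo pathway. Cad and Dhodh of that pathway were among the higher genes. So were Dck, Dctd, Dut and Tyms, which are on the dNTP supply list as well. Dhodh, the drug's target, stood at 25.5 and 24.2 CPM at 0 h, at 24.0 CPM with brequinar and at 14.1 CPM after withdrawal (1.70-fold, 1.41 to 2.07). Cad, which carries out the first steps of the pathway, stood at 48.0 and 47.8 CPM at 0 h and at 62.8 CPM against 25.6 CPM (2.45-fold, 2.14 to 2.81). Umps, the last enzyme, stood at 148 CPM against 107 CPM, short of 1.5-fold (1.38-fold, 1.28 to 1.48) and below its 197 and 202 CPM at 0 h in both cultures. The nucleoside transporter Slc29a1 was at 58.5 CPM against 25.1 CPM. The level of the target was thus near 0 h with brequinar, and the low value was that of withdrawal. Of 23 purine synthesis genes 6 were higher (26.1%, against 13.2% over all genes) and 1 lower (4.35%, against 7.33%), with a median of 0.42.

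Amino acid response genes were also higher with brequinar. ATF4 is the activator that acts downstream in the integrated stress response. Of its 34 measured target genes 16 were higher and 0 lower (median 0.48). Nupr1 stood at 8.08 and 8.75 CPM at 0 h, at 169 and 143 CPM at 6 h, and at 47.0 CPM with brequinar against 16.5 CPM after withdrawal at 12 h (2.85-fold, 2.42 to 3.37). Trib3, a pseudokinase that dampens the response, had 156 and 175 CPM at 6 h and 111 CPM against 49.1 CPM at 12 h (2.26-fold, 2.05 to 2.49), and Mthfd2, of mitochondrial one-carbon metabolism, 374 and 288 CPM and then 294 CPM against 117 CPM. The withdrawal culture was nearer its 0 h level at 12 h than the brequinar culture for these 3 genes. On the amino acid transport and synthesis list, which shares members with the ATF4 list, 12 of 26 were higher and 0 lower (median 0.39).

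Progenitor genes went both ways. Of 21 measured members 7 were higher and 7 lower with brequinar (median 0.03). Meis1 stood at 41.6 and 42.1 CPM at 0 h, at 93.9 CPM with brequinar and at 28.5 CPM after withdrawal (3.30-fold, 2.92 to 3.74). Cd34, which marks early blood cells, was at 142 and 138 CPM at 0 h, and at 412 CPM against 211 CPM (1.95-fold, 1.86 to 2.05), above 0 h in both cultures. Sox4 stood at 118 CPM against 52.2 CPM and Kit, the receptor of stem cell factor, at 107 CPM against 84.4 CPM (1.26-fold, 1.16 to 1.37). In the other direction, Hoxa9 stood at 75.9 and 78.4 CPM at 0 h, at 72.7 CPM with brequinar and at 119 CPM after withdrawal (1.64-fold lower, 1.52 to 1.78). Counts for Hoxa9 do not tell the endogenous gene from the fusion's transcript. Ikzf2, Emb and Gata2 were 2.06-fold, 2.00-fold and 1.93-fold lower with brequinar. Myc stood at 126 CPM against 150 CPM (ratio 0.839, 0.785 to 0.896), below 0 h in both, and Mycn was near the limit of counting at 1.07 CPM against 0.0921 CPM.

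Myeloid regulators were lower with brequinar than after withdrawal. Of 20 measured myeloid transcription factors 10 were lower and 2 higher (median -0.54). Cebpe, the C/EBP factor of late granulocyte development, stood at 126 and 117 CPM at 0 h, at 65.2 CPM with brequinar and at 232 CPM after withdrawal (3.56-fold, 3.31 to 3.83). Cebpa, the C/EBP factor of early granulocyte commitment, stood at 58.3 and 58.7 CPM at 0 h and at 39.0 CPM against 105 CPM (2.68-fold, 2.43 to 2.96). Both genes were below 0 h with brequinar and above it after withdrawal. Spi1, which encodes PU.1, stood at 186 CPM with brequinar, close to 187 and 198 CPM at 0 h, and at 383 CPM after withdrawal (2.06-fold, 1.96 to 2.16). Zeb2 was 2.72-fold lower (2.55 to 2.90). The 2 on the other side were Jun (2.68-fold higher, 2.13 to 3.40) and Gfi1, a transcriptional repressor active in granulocyte development (1.54-fold, 1.39 to 1.71).

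Effector genes of maturing cells followed in part. Of 7 measured genes of eosinophils, mast cells and basophils 5 were lower and 0 higher (median -1.06), and the list summed to 2237 CPM with brequinar and 6291 CPM after withdrawal. Prg2, eosinophil major basic protein, stood at 684 and 631 CPM at 0 h and at 914 CPM against 2159 CPM (2.36-fold, 2.31 to 2.41), and Cpa3, a mast cell protease, at 591 CPM against 1236 CPM. Of the 23 listed markers 4 had no UMI, Ear2 and Fcer1a among them, and Epx, eosinophil peroxidase, was near 0 at 0.564 and 1.75 CPM. Much of this RNA lay in few cells: the richest 5% held 53.3% of the list's UMIs with brequinar and 48.2% after withdrawal, and 36.5% of the Prg2 UMIs of brequinar cells lay in the 20 G1-like cells. With cells weighted to equal class shares Prg2 was therefore 1.63 times as high with brequinar as after withdrawal, the reverse of the plain sums. Prg3 was spread more widely, with a UMI in 41.1% of brequinar cells (38.4 to 43.8) and 72.0% of withdrawal cells (69.1 to 74.7). Sums alone do not tell fewer cells with the RNA from less of it per cell. In thinned cells, at least 3 UMIs of Prg3 were found in 12.4% of brequinar and 45.75% of withdrawal cells. For Cpa3 these shares were 20.7% and 38.7%.

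Phagocyte genes were lower with brequinar in 8 of 19 cases and higher in 1 (median -0.55), with Cd52 at 143 CPM against 396 CPM. Of 13 cytokine receptor and signalling genes 4 were lower (30.8%, against 7.33% over all genes) and 1 higher (7.69%, against 13.2%). Of 11 measured neutrophil genes 3 were lower and 0 higher (median 0.04). The untreated cultures already differed on this list: at 0 h, 3 of 10 measured members were lower in the brequinar series and 0 higher (median -0.29). S100a8, a calprotectin subunit, stood at 109 CPM against 90.5 CPM (1.202-fold, 1.11 to 1.30). In thinned cells, the richest 5% held 82.9% of S100a8 UMIs with brequinar and 75.1% after withdrawal. The share of cells with an S100a8 UMI went the other way, at 8.91% (7.43 to 10.6) and 12.1% (10.15 to 14.3). Mpo, myeloperoxidase, stood at 873 CPM against 1138 CPM (ratio 0.766, 0.748 to 0.785) and Elane, neutrophil elastase, at 32.7 CPM against 29.9 CPM with an interval that held 1 (0.948 to 1.26). Granule genes of the promyelocyte stage thus differed little at 12 h.

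Among growth genes, the MYC list had more members higher than the 13.2% over all genes, and the ribosome lists fewer. Of 26 measured MYC network and target genes 7 were higher and 0 lower (median 0.32), including Prmt3 at 124 CPM against 48.2 CPM and Odc1, ornithine decarboxylase, at 181 CPM against 86.6 CPM. Of 61 ribosome biogenesis genes 6 were higher and 0 lower (median 0.23), and of 73 cytosolic ribosomal protein genes 0 were higher and 1 lower (median -0.13). Of 26 HMG and chromatin enzyme genes 6 were higher (23.1%, against 13.2% over all genes) and 3 lower (11.5%, against 7.33%). Dnmt1, the maintenance methyltransferase, stood at 224 CPM against 139 CPM, and Uhrf1, its recruiter, at 100.1 CPM against 45.6 CPM. Of 13 p53 targets 2 were higher (15.4%, against 13.2% over all genes) and 3 lower (23.1%, against 7.33%), with a median of 0.05. Gdf15 stood at 39.5 CPM against 11.8 CPM and Gadd45a at 52.1 CPM against 121 CPM. Of 13 measured mitochondrially encoded genes 0 were higher and 3 lower (median -0.03), the farthest being mt-Cytb, which encodes cytochrome b, at 8981 CPM against 16882 CPM. Its ratio was 0.532 in all cells and 0.535 without the mitochondria-rich cells.

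The direction at 12 h was often not that of later times. At 6 h, brequinar stood at least 1.5-fold higher than withdrawal for 1.90% of measured genes and lower for 1.45%; at 24 h the shares were 29.6% and 8.05%, and at 48 h 37.6% and 8.57%. The median of the sterol list was 0.11 at 6 h, 0.96 at 12 h and -0.54 at 24 h, and that of the ATF4 list 0.14, 0.48 and -0.62. The eosinophil list went from -1.06 at 12 h to 1.10 at 24 h and the myeloid transcription factors from -0.54 to 0.70. The progenitor list went from 0.03 to 1.05. The histone list stayed lower with brequinar at 6, 12, 24 and 48 h, with medians of -0.56, -1.24, -0.97 and -1.34. The number of measured members differed between times, since a gene had to reach 20 CPM at that time.

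**Figure D5:**
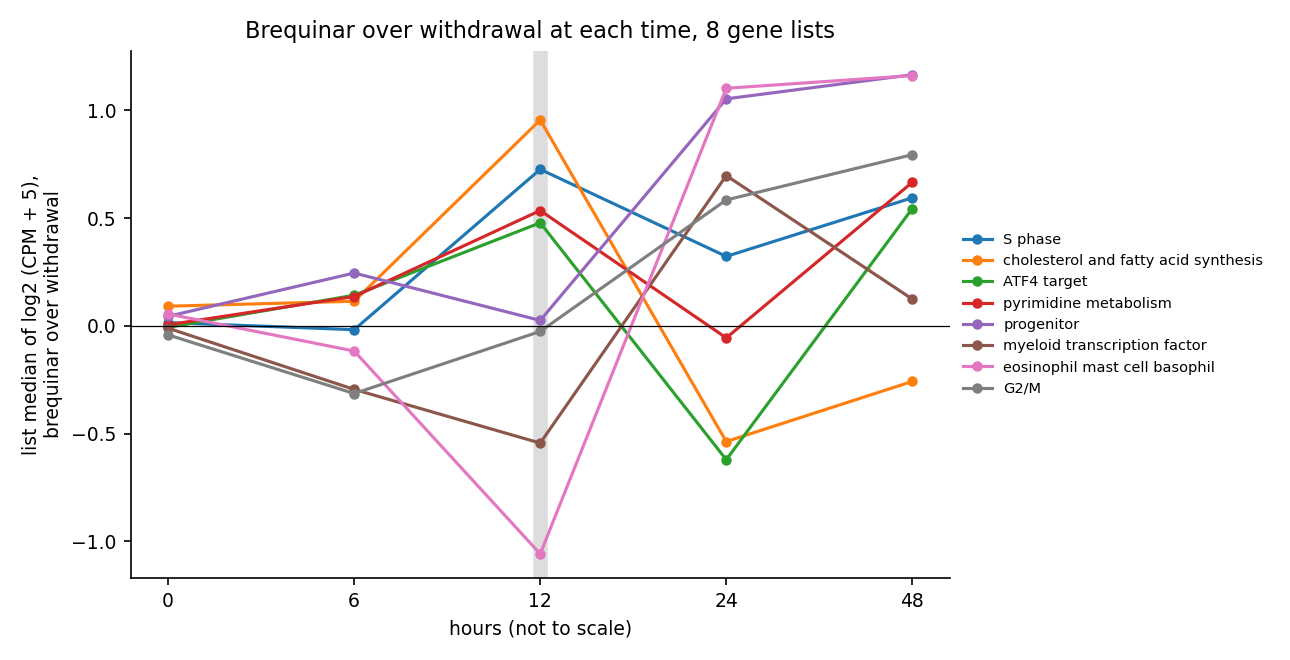
Median log2 ratio of CPM + 5, brequinar over withdrawal (y axis), for 8 gene lists at 0, 6, 12, 24 and 48 h (x axis, categories not to scale, 12 h shaded); each point is the median over the members at 20 CPM or more at that time. The sterol and ATF4 lists are above 0 at 12 h and below it at 24 h, and the eosinophil and myeloid transcription factor lists the reverse.

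Both directions were spread over genes of all lengths. With 6077 genes (those with a GENCODE M21 position) in 5 equal groups by genomic span, the median log2 ratio was 0.08 in the shortest group, up to 8015 bases, and 0.05 in the longest, from 62566 bases, with 0.12, 0.10 and 0.10 between. The share of genes higher with brequinar ran from 11.8% in the longest group to 14.4% in the next longest. For the remaining motifs the values were as follows: CACGTG, the MYC E-box, in 9.91% of promoters of higher genes, 7.20% of lower genes and 9.405% of all; TGATTGAT, a HOX and PBX word, in 4 of 656, 1 of 347 and 15 of 4955; TTGCGCAA or TTGCGAAA, C/EBP words, in 7 of 656, 2 of 347 and 28 of 4955; and TGATGCAAT or TGATGAAAC, ATF4 words, in 4 of 656, 2 of 347 and 10 of 4955. Of the 30 ATF4 target promoters held, 3 had an ATF4 word (10.0%). Counts this small describe these windows only.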

How the data were processed

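The 2 deposited 10X Genomics v3 runs hold 1 pool of 10 MULTI-seq cultures. The matrix the authors deposited holds spliced UMI counts per gene and barcode; per the submitters' processing notes, Cell Ranger, kallisto 0.46 and bustools 0.39.4 were used, but their roles and the genome build were not given in the sources used here. The deposited unspliced matrix was not used. Barcodes do not carry a run mark, so the runs were pooled, and each culture was 1 sample.

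Cells took their culture from the authors' demultiplexing calls; 2777 doublet calls (17.8%) and 265 negative calls of 15582 barcodes were left out, and no other doublet caller was run. Spliced counts were summed per culture, divided by the culture's total and given as CPM, a unit computed here from the deposited counts. Ratios carry exact conditional binomial 95% intervals. Genes needed 20 CPM in either culture; log2 ratios used a pseudocount of 5 CPM. A list is described by its counts and median beside all genes. Named genes were at 50 CPM or more in either culture: the 15 highest and 15 lowest log2 ratios without mitochondrial genes and unnamed models, up to 4 members per list and direction, and a set of genes always given (Dhodh, Cad, Umps, Cd34, Kit, Meis1, Hoxa9, Myc, Mycn, Ccne2, Pcna, Mki67, Cdkn1a, Rrm2, Mpo, Elane, Spi1, Cebpa, Cebpe, S100a8, Itgam); others, such as Hist1h4i, H2afz, H2afy, Mcm5, Mcm6, Pola1, Rbl1, Insig1, Srebf1, Srebf2 and the markers near 0, were chosen after their values were seen. The gene lists and the comparison were chosen with earlier results of these data known. Histone list symbols were matched to the older symbols of the matrix through RefSeq synonyms, which placed 17 of 36 list members. The others had no single match, although some of these genes were in the matrix under older symbols. Cell cycle classes came from scanpy 1.11.5 on cells thinned to 2500 UMIs. Results for some genes are not reported here. Promoters were matched by symbol in RefSeq GRCm38.p6, for 4955 of 6086 genes. The ratio and call rule were tested on simulated counts with known folds.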

Additional observations from a re-analysis of the deposited data

Results flagged for a closer look

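Of 50 genes named by rank or always given, 9 stood at least 1.5-fold apart at 12 h and at least 1.5-fold apart in the opposite direction at 24 h. The share of such genes over all measured genes is not given here, so whether 9 of 50 is unusual cannot be told. At 24 h, 29.6% of all measured genes were at least 1.5-fold higher with brequinar and 8.05% lower. Each time is 1 culture per treatment, so the difference between the times was not tested. Idi1 and Rrm2 were higher with brequinar at 12 h and 1.58-fold and 1.57-fold lower at 24 h. Among the genes lower with brequinar at 12 h, Cd200r4 was 11.8-fold higher at 24 h (10.6 to 13.1), at 319 CPM against 27.0 CPM, and Cd200r1 4.15-fold higher. Fos was 3.44-fold higher at 24 h, at 103 CPM against 29.9 CPM. The cytokine receptor chain Csf2rb was 2.46-fold higher at 24 h, the kinase gene Tec 1.95-fold, the inhibitor Id1 1.80-fold and Cebpa 1.66-fold.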

How the results depend on the processing

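The 805 higher and 446 lower genes depended on the level filter and the fold by construction, with 1430 and 768 at 5 CPM, 424 and 262 at 50 CPM, and 234 and 125 at 2-fold; the other alternatives kept both counts within 1.5 times. Median-of-ratios factors gave 593 higher and 626 lower, of which 593 and 446 were also called with plain totals. The S phase list's 31 higher genes became 12 at 2-fold, 15 with equal class shares and 14 with equal shares over S and G2/M cells, an alternative chosen after seeing the data; the sterol list's 22 became 12 at 50 CPM and 12 at 2-fold. The S share of brequinar cells was 52.1% without thinning and 47.0% from half-length lists, and the G2/M share 46.9% and 51.5%. For withdrawal cells, half-length lists gave 26.8% in S and 53.05% in G2/M, and thinning to 1500 UMIs gave 51.8% in G2/M and 15.9% in the G1-like class. Of 175 named genes tried under 10 settings, 1 reversed, Prg2, at 1.63 with equal class shares, a setting in which each of the 20 G1-like brequinar cells had a weight of 7.42. Beyond their counting interval, 63 of the 175 ratios moved with equal class shares, 63 in thinned cells, 55 with equal S and G2/M shares, 48 with median-of-ratios factors, 42 with 5% free RNA removed, 31 on the CPM + 5 scale, 21 with trimmed-mean factors, and 3 to 8 when cells were left out. Without mitochondria-rich cells 785 of the 805 and 439 of the 446 genes were still called. No paired analysis was possible because each condition was 1 culture and the cells carry no run mark.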
